A study of Mus musculus with 14 samples.

Results

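The 9 genes described here encode the Hes, Hey and Id repressors Hes1, Hes5, Hes6, Hey1, Hey2, Id1, Id2, Id3 and Id4. They were chosen as every mouse probe of the array whose transcript, or whose entry in the study's supplementary tables, belongs to one of these genes, which gave 11 of 34312 mouse probes and 9 of the 15958 genes that could be named. Hes6 and Id1 had 2 probes each and the other 7 genes had 1. Where a gene had several probes, the brighter probe stood for it.

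RNA levels were measured for C57BL/6 mice at postnatal day 0 (P0) and embryonic day 14 (E14), in Notch1+ cells drawn from the retina and in the whole retina, with no genetic change or treatment in any group. The groups were P0 Notch1+ cells (4 arrays), P0 whole retina (4), E14 Notch1+ cells (3) and E14 whole retina (3), 14 arrays in all. For the Notch1+ cells, retinas of many eyes were pooled for each preparation and dissociated with papain. The cells were then drawn out with a biotin-conjugated antibody to the Notch1 receptor and magnetic beads. The study describes no dissociation for whole retina, so the effects of handling and of selection cannot be told apart in comparisons of Notch1+ cells with whole retina. A sample of Notch1+ cells held 200000 to 500000 cells, and the RNA of each sample was amplified and hybridized alone to a MEEBO array of oligonucleotide probes. The selection took cells by a surface receptor, so it mixes every retinal cell that carries Notch1, and whole retina contains those same cells.

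When a Notch receptor is activated by a ligand on a neighbouring cell, its intracellular part enters the nucleus and, with Rbpj and Mastermind, switches on Hes and Hey genes. Hes and Hey proteins are basic helix-loop-helix factors that recruit corepressors, among them the Groucho (Tle) proteins, and in the retina Hes1 and Hes5 hold back proneural factors and keep progenitors undifferentiated. Hes6 is the exception of the family, since it antagonises Hes1 and accompanies neuronal differentiation. Id proteins lack the basic region that contacts DNA and work by tying up E proteins, the partners of proneural factors, and they are known as targets of BMP and SMAD signalling.

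Promoter windows from RefSeq on GRCm38.p6, 250 bases before to 50 bases after an annotated transcription start, were found for 6 of the 9 genes. Both strands were searched for the core of the Rbpj site (TGGGAA), which 25.6% of all 32851 windows held at least once and 3.79% at least 2 times. Hes5 (chr4:154960673-154960972, plus strand) held it starting 226 and 82 bases before the start, on the minus strand at the first place and on the plus strand at the second. Hey2 (chr10:30842734-30843033, minus strand of the genome) held it starting 207 and 3 bases before the start, also in both orientations. Id4 (chr13:48260866-48261165, plus strand) held it once, and the windows of Hes6, Id2 and Id3 held no match, which says only that these letters are not in those windows. The windows of Hes5, Hey2 and Hes6 (chr1:91413989-91414288, minus strand, the more upstream of 2 Hes6 windows) are printed because the called differences described further on belong to these genes, 5′ to 3′ along the gene, with each match in capitals on whichever strand it lies.
Hes5: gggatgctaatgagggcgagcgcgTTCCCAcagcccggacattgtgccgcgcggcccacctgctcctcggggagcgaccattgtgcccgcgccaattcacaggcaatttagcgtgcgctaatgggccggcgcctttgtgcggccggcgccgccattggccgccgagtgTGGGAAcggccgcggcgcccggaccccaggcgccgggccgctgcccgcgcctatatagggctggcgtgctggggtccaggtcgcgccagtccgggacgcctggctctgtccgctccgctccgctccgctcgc
Hey2: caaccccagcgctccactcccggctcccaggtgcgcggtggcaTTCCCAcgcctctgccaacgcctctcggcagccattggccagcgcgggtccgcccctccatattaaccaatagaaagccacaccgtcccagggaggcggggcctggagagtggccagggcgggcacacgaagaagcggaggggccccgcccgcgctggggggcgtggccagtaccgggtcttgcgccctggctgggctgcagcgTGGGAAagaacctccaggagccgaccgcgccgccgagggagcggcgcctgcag
Hes6: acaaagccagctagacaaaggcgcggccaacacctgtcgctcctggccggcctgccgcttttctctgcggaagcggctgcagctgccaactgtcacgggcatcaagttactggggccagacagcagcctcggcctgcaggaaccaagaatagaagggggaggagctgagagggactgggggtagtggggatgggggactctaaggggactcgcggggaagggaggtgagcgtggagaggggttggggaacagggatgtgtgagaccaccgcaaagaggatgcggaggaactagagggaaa
That Hes6 window held 1 match to CACGNG, the site bound by Hes and Hey factors, which 27.5% of all windows held at least once. The other Hes6 window held 2 matches to the N-box CACNAG, which 42.5% of all windows held at least once. Id2 and Id4 held 1 N-box each. The SMAD element GGCGCC, present at least once in 11.9% of windows, occurred 4 times in the Hes5 window and once each in those of Hey2, Id2 and Id4. Id3 held none of the 4 motifs. The share of windows with several matches was counted for TGGGAA alone, so the 4 matches have no like share beside them. No 2 matches of different motifs shared bases in these windows.

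Values are normalized intensities, background-corrected scanner readings brought to a common distribution across the 14 arrays. A probe was taken as above background on an array where its foreground median lay over 2 background SDs above the local background median, which held for 9332 to 13547 mouse probes per array. The limma model held the 13683 mouse probes that reached this on 3 or more arrays, and a difference was called where its p, adjusted by Benjamini-Hochberg across these 13683 probes, was under 0.05. The representative probes of 8 of the 9 genes were above background on all 14 arrays, and that of Hey2 on 7. The P0 Notch1+ arrays were scanned on a day of their own, as were the P0 whole retina arrays, and the 6 E14 arrays on another, so that only at E14 were the selected cells and the retina scanned together, and elsewhere the effects of scan day and of group cannot be told apart. Notch1 itself was higher in the selected cells, at 33124 ± 14521 in P0 Notch1+ cells against 11709.6 ± 1349 in P0 whole retina, and at 25617 ± 5598 in E14 Notch1+ cells against 9137 ± 2028 in E14 whole retina (SD; adjusted p = 0.0042 and 0.017). All 13 retinal progenitor genes of a marker list were tested, and their summed intensity was 67472 to 92867 in P0 Notch1+ cells against 74598 to 84844 in P0 whole retina, with 0 called higher and 1 called lower. At E14 the sums did not overlap, at 74876 to 90088 in Notch1+ cells against 128077 to 148009 in whole retina, again with 0 called higher and 1, Sfrp2, called lower (log2 fold change -2.21). Of 9 ganglion cell genes tested, 8 were called lower at P0 and 7 at E14, where 10.7% and 3.24% of all tested probes were called lower. Of the 9, 6 were above background on no P0 Notch1+ array, and Pou4f2, Nefm and Thy1 on no E14 Notch1+ array, so that they were tested through the other arrays. In these bulk samples, fewer cells of a type and less RNA per cell cannot be told apart.

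**Figure D1:**
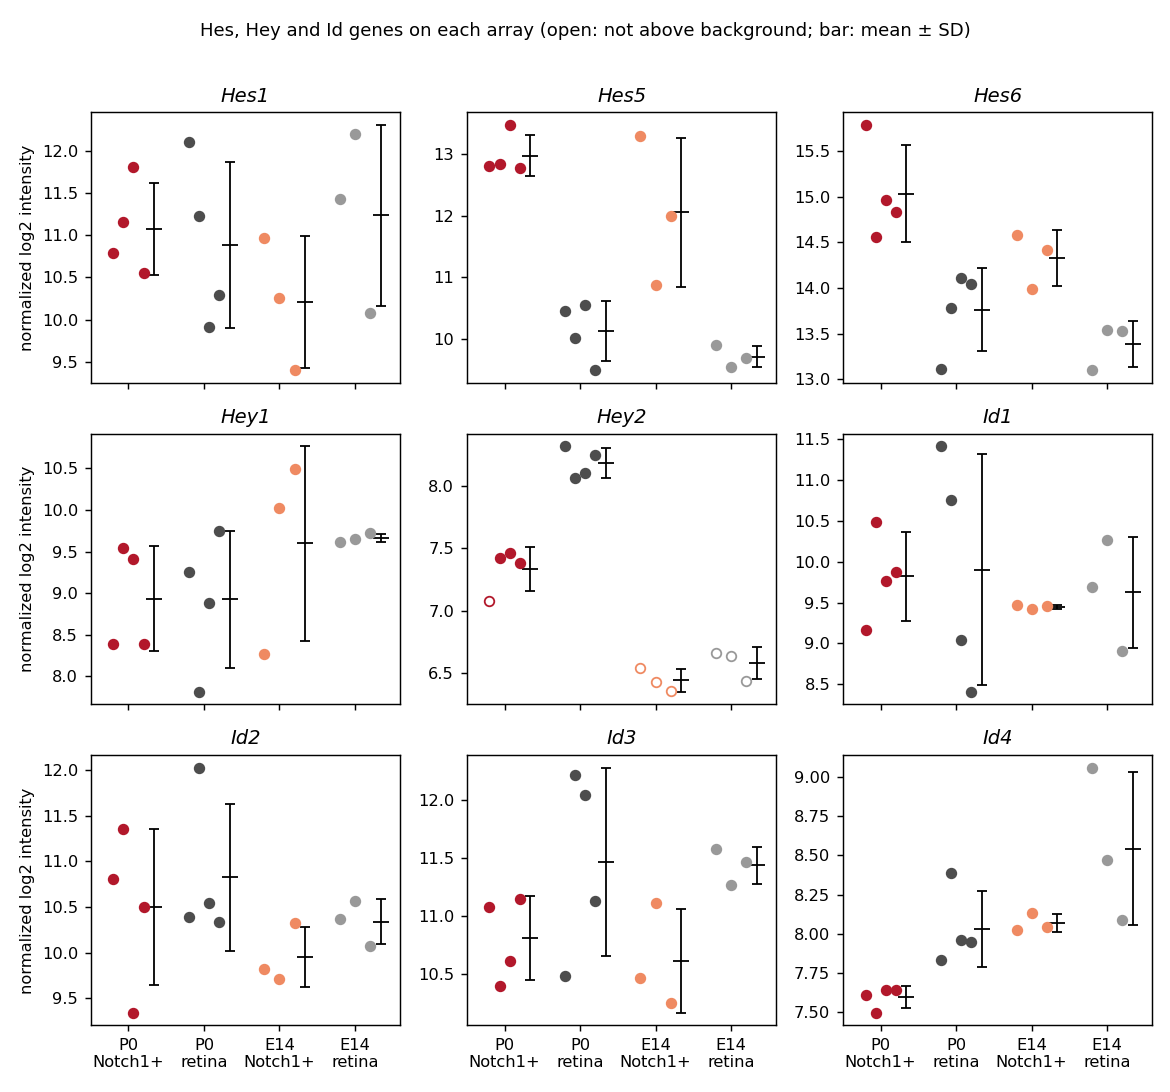
Normalized log2 intensity of the 9 genes (y axis, each panel on its own scale) on each of the 14 arrays by group (x axis), with bars for mean ± SD and open points for arrays not above background. Hes5 was higher on every Notch1+ array than on every whole retina array of the same stage, and Hey2 was above background at P0 alone.

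At P0, Hes5 and Hes6 were the 2 genes of the 9 called higher in Notch1+ cells and Hey2 the 1 called lower, against 8.97% of all tested probes called higher and 10.7% called lower. Under the 4 scalings of whole arrays described with Hes6 and the Id genes, Hes5 alone was called higher, and Hey2 and Id3 were called lower, with Id4 in 2 of the 4. Of the 13683 tested probes, 3778 were called lower with 1 median and 2273 in the authors' values. With the 75th percentile 2046 were called lower, and with the median of the tested probes 1469. Called higher were 320, 780, 1070 and 2126 in that order. In the reported fit the median log2 fold change was -0.08 over the 9 genes and 0.01 over all tested probes. The groups did not overlap for 4 of the 9 genes, against 23.6% of all tested probes. At E14, Hes5 was the 1 gene called, where 2.67% of tested probes were called higher and 3.24% lower, and the groups did not overlap for 3 of the 9 genes, against 25.6% of tested probes. The median over the 8 genes above background on an E14 array was -0.28, against 0.01 over all tested probes.

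Hes5, the Hes factor most directly dependent on Notch input in the developing nervous system, set Notch1+ cells apart from whole retina at both stages. The 4 P0 Notch1+ arrays read 7126, 7349, 11359 and 6994, against 1402, 1029.6, 1504 and 719 on the 4 P0 whole retina arrays. Every Notch1+ array lay above every retina array. The log2 fold change at P0 was 2.85 ± 0.40 (SE), or 7.19-fold (adjusted p = 0.00029). At E14 the 3 Notch1+ arrays read 9999.9, 1884 and 4068, against 952, 749 and 830.0 on the 3 whole retina arrays. The E14 groups again did not overlap, though the Notch1+ arrays differed among themselves by 5.31-fold while the retina arrays stayed within 1.27-fold. The log2 fold change at E14 was 2.34 ± 0.46 (5.06-fold, adjusted p = 0.0088). It was 1.72 without E14 Notch1+ replicate 1 and 2.93 without E14 Notch1+ replicate 2, called in both cases, and it was no longer called with the 6 E14 arrays fitted alone (adjusted p = 0.087). Before any normalization the background-subtracted Hes5 readings were 3802 to 5648 in P0 Notch1+ cells against 913 to 2520 in P0 whole retina, and 2035 to 9353 in E14 Notch1+ cells against 858 to 1019 in E14 whole retina, so the separation was already in the raw readings.

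Ordered by mean, Hes5 stood at 8207 ± 2107 in P0 Notch1+ cells, 5318 ± 4199 in E14 Notch1+ cells, 1164 ± 359.6 in P0 whole retina and 844 ± 103 in E14 whole retina (SD). The neighbours within a cell preparation did not separate. P0 minus E14 gave a log2 fold change of 0.92 (95% interval -0.01 to 1.85, adjusted p = 0.19) in Notch1+ cells and 0.41 (-0.52 to 1.34, adjusted p = 0.58) in whole retina. The first value turned on E14 Notch1+ replicate 1, the highest Hes5 array of its group, and was 1.54 (adjusted p = 0.022) without it.

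Hes6, the antagonist of Hes1, gave a second called difference at P0, and this call depended on how the arrays were put on a common scale. Its brighter probe read 56525, 24089, 31871 and 29153 on the P0 Notch1+ arrays, against 8841, 14056, 17614 and 16912 on the P0 whole retina arrays. The groups did not overlap, and P0 Notch1+ replicate 1 was the highest of all 14 arrays. The log2 fold change was 1.27 ± 0.28 (2.42-fold, adjusted p = 0.0060). The background-subtracted readings before normalization overlapped, at 13113 to 42648 in P0 Notch1+ cells against 17406 to 31581 in P0 whole retina, and their median was lower in the Notch1+ cells (15955) than in whole retina (23339). The authors' own values multiply each array by 1 factor, 1.12 to 1.41 for P0 Notch1+ cells and 0.613 to 0.920 for P0 whole retina, and gave 0.44 (adjusted p = 0.42), with the median of all tested probes at -0.19, so that Hes6 stood 0.62 above that median. Scaling the arrays to the median of the tested probes, an alternative added after seeing the data, gave 0.56 (adjusted p = 0.23), and scaling to a common 75th percentile gave 0.38 (adjusted p = 0.45). The call was kept under both other background corrections and under cyclic loess.

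At E14 the same Hes6 probe read 24414, 16206 and 21841 in Notch1+ cells, against 8763, 11881 and 11807 in whole retina. Here too every Notch1+ array was above every retina array, and the background-subtracted readings did not overlap either (17919 to 24655 in Notch1+ cells against 9344 to 15080 in whole retina). The log2 fold change of 0.94 ± 0.32 had a 95% interval of 0.25 to 1.63 and did not pass the adjusted threshold (adjusted p = 0.12). The dimmer Hes6 probe gave 0.79 ± 0.44 at P0, with overlapping groups (1328 to 5579.6 in Notch1+ cells against 1066 to 3234 in whole retina, adjusted p = 0.23), and 1.01 ± 0.51 at E14, with no overlap (1338 to 2105 in Notch1+ cells against 452 to 1049 in whole retina, adjusted p = 0.31). The mean of both probes was called at each stage, with a log2 fold change of 0.97 at E14 (adjusted p = 0.045). Between stages, Hes6 differed by 0.71 in Notch1+ cells (P0 minus E14, adjusted p = 0.15) and by 0.37 in whole retina (adjusted p = 0.45), neither of them called.

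**Figure D2:**
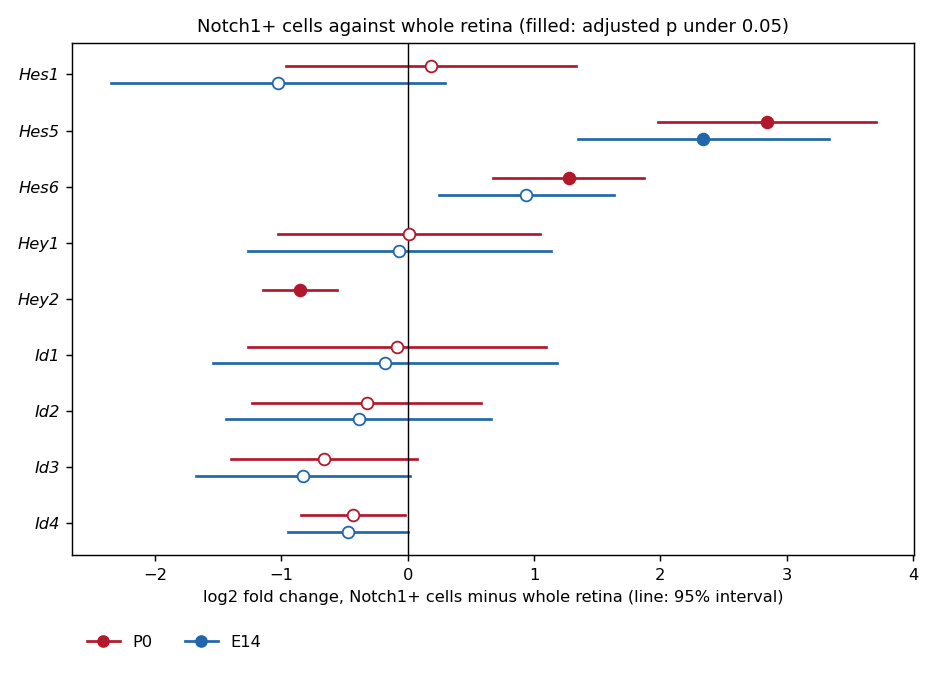
Log2 fold change of Notch1+ cells over whole retina (x axis, lines for 95% intervals) for the 9 genes (y axis) at P0 and E14, filled where adjusted p was under 0.05. Hes5 lay furthest to the right at both stages (2.85 at P0 and 2.34 at E14), Hey2 was called lower at P0, and Hey2 has no E14 point because it was not above background there.

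Hes1, the broadly expressed Hes repressor of progenitors, did not follow Hes5. P0 Notch1+ arrays read 1764, 2275, 3574 and 1497, against 4416, 2398, 966 and 1249 in P0 whole retina. The retina arrays spanned 4.57-fold and enclosed all 4 Notch1+ arrays, so the means of 2278 ± 923 and 2257 ± 1567 did not differ beyond their spread. The log2 fold change was 0.19, with a 95% interval of -0.96 to 1.33 (adjusted p = 0.84), and it was negative under each scaling of the arrays (-0.24 in the authors' values). At E14 the Notch1+ arrays read 2009, 1224 and 675, against 2749, 4712 and 1080.4 in whole retina. These overlapped, since the lowest retina array was below the higher Notch1+ arrays, and the log2 fold change of -1.03 (-2.35 to 0.30) was not called (adjusted p = 0.41). For P0 minus E14 the 95% intervals were -0.38 to 2.10 in Notch1+ cells and -1.59 to 0.89 in whole retina, wide enough to hold either sign.

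Hey1, a Hey-family partner of Hes factors in neural progenitors, read 335, 747, 682 and 335 in P0 Notch1+ cells, against 613, 225, 470.4 and 856 in P0 whole retina. At E14 it read 309.5, 1039 and 1443 in Notch1+ cells, against 784, 807 and 843 in whole retina. The E14 retina arrays agreed within 1.07-fold and fell inside the 4.66-fold range of the Notch1+ arrays. None of the Hey1 differences was called, with log2 fold changes of 0.01 (-1.03 to 1.05) for Notch1+ cells against whole retina at P0 and -0.07 (-1.26 to 1.13) at E14. P0 minus E14 was -0.66 in Notch1+ cells (adjusted p = 0.44) and -0.74 in whole retina (adjusted p = 0.38).

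Hey2, known best for its part in the heart and vessels and also a promoter of glial fate in the retina, had a pattern of its own in the group. It was above background on 3 of 4 P0 Notch1+ arrays, 4 of 4 P0 whole retina arrays and none of the 6 E14 arrays. P0 Notch1+ arrays read 135, 172, 176 and 167, against 319, 267, 275 and 304 in P0 whole retina. All 4 Notch1+ arrays lay below all 4 retina arrays, and the log2 fold change was -0.85 ± 0.14 (0.555-fold, adjusted p = 0.00076). The background-subtracted readings were 61 to 77 in P0 Notch1+ cells against 221 to 470 in P0 whole retina, whose arrays read brighter in general (the authors' factors were 0.613 to 0.920 there). In the authors' scaled values Hey2 was still called, at -1.38, which is -1.19 relative to the median of all tested probes. At E14 the probe read 82 to 92.9 in Notch1+ cells and 86.5 to 101 in whole retina, not well above background in either, and no fold is given.

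Between stages Hey2 was the 1 gene of the 9 called in either preparation, and it was called higher at P0. Of all tested probes, 5.92% were called higher and 5.17% lower at P0 for the Notch1+ stages, and 7.67% and 6.61% for the whole retina stages. No E14 array measured Hey2, so it was tested through the P0 arrays, where it is high. The fold was taken against the lowest signal above background on the E14 arrays. Hey2 was at least 2.16-fold higher at P0 in whole retina. In the Notch1+ cells the same measure gave 1.12-fold, which is not a strict bound, because P0 Notch1+ replicate 1 was not above background and was taken as read. The limma adjusted p-values (1.9e-05 for whole retina and 0.0025 for Notch1+ cells) belong to the fitted log2 fold changes of 1.60 and 0.89, not to these folds. Groups did not overlap between stages for 2 of the 9 genes in Notch1+ cells (24.1% of tested probes) and for 1 in whole retina (29.2%). The 5 probes most like Hey2 over the 14 arrays were those of Rbp3, Npy, Vsnl1, Pcare and Tnni1 (Pearson r = 0.98, 0.97, 0.97, 0.97 and 0.96), a description over arrays that share groups and scan days. Rbp3 and Pcare are photoreceptor genes. Of 10 photoreceptor markers tested, 9 were called lower in P0 Notch1+ cells than in P0 whole retina and 9 were called higher at P0 than at E14 in whole retina, and their summed intensity was 2891 to 5515 in P0 Notch1+ cells, 9518 to 19906 in P0 whole retina, 1309 to 1780.5 in E14 Notch1+ cells and 1758 to 1930.1 in E14 whole retina. In P0 Notch1+ cells Rcvrn and Pde6b were above background on no array, and in E14 whole retina 5 of the 10 were (Rcvrn, Pde6b, Gnat1, Sag and Prph2), so that these were tested through the groups where they are high. Müller glia markers were also called higher at P0 than at E14 for 5 of 9 in whole retina and 4 of 9 in Notch1+ cells. Among them Rlbp1 was above background on no E14 array of either preparation, so it was tested through the P0 arrays, where it is high. For P0 Notch1+ cells against P0 whole retina, 0 of the 9 were called higher and 1 lower. Amacrine and horizontal cell markers were called lower for 6 of 9 in P0 Notch1+ cells than in P0 whole retina. In whole retina 6 of 9 were called higher at P0 than at E14. Between the Notch1+ stages, where Hey2 was called higher at P0, 2 of the 9 were called higher at P0 and 1 lower. Their summed intensity was 1797 to 2048 in P0 Notch1+ cells, 5449.99 to 13035 in P0 whole retina, 1751 to 2247 in E14 Notch1+ cells and 2761 to 3229 in E14 whole retina. Lhx1, Gad1 and Slc32a1 were above background on no P0 Notch1+ array, and these and Tfap2a on no E14 Notch1+ array. Lhx1 and Gad1 were above background on no E14 whole retina array either, so these genes were tested through the other arrays. Of all tested probes, 10.7% were called lower in P0 Notch1+ cells than in P0 whole retina. The part of these marker lists in the Hey2 result was not tested.

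**Figure D3:**
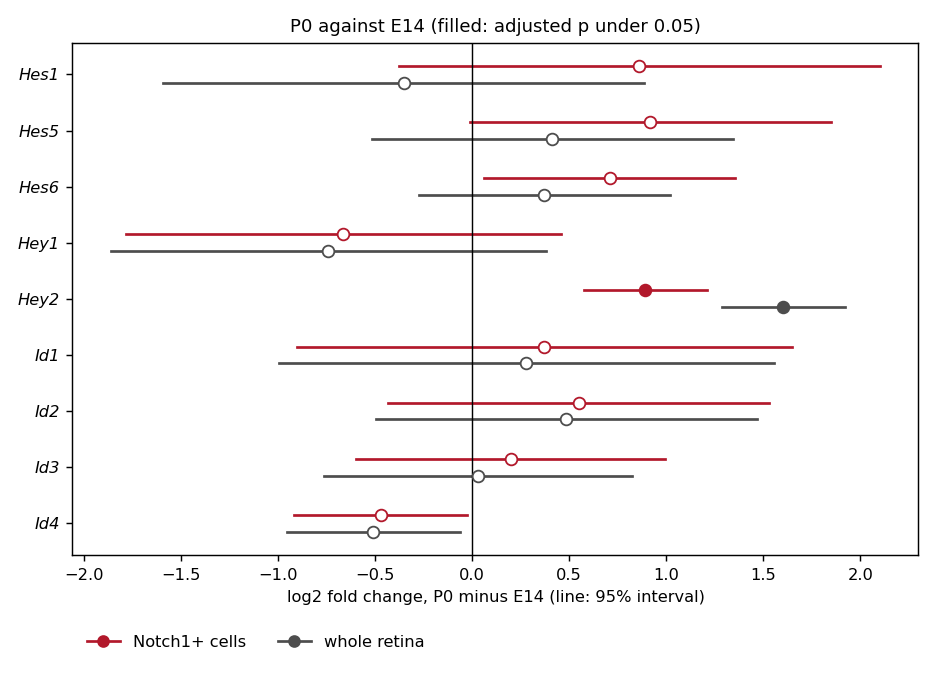
Log2 fold change of P0 over E14 (x axis, lines for 95% intervals) for the 9 genes (y axis) in Notch1+ cells and whole retina, filled where adjusted p was under 0.05. Hey2 was the 1 gene called, at fitted values of 0.89 in Notch1+ cells and 1.60 in whole retina that rest on E14 arrays not above background, and the intervals of Hes1 and Id1 were the widest.

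No Id gene was called higher or lower in any comparison by its representative probe. All 4 had a log2 fold change below 0 for Notch1+ cells against whole retina at both stages, from -0.66 to -0.08 at P0 and from -0.83 to -0.18 at E14, where the medians of all tested probes were 0.01 and 0.01. Id3, an inhibitor of E proteins found in progenitors and vessels, read 2160.3, 1344, 1566 and 2269 in P0 Notch1+ cells, against 1426, 4749, 4230.2 and 2242 in P0 whole retina. The groups overlapped through retina replicates 1 and 4, and the log2 fold change of -0.66 ± 0.34 (adjusted p = 0.20) became -0.99 (adjusted p = 0.039) without P0 whole retina replicate 1. At E14 Id3 read 1415, 2209.7 and 1217 in Notch1+ cells, against 3057, 2458 and 2833 in whole retina. There all Notch1+ arrays were below all retina arrays, with a log2 fold change of -0.83 ± 0.39 (adjusted p = 0.27).

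Id4, which among the Id proteins can also oppose its relatives, varied little within the Notch1+ groups. It read 196, 180.4, 199.8 and 199.7 in P0 Notch1+ cells, against 228, 335, 249 and 247 in P0 whole retina. The groups did not overlap, and the log2 fold change of -0.43 ± 0.19 did not pass the adjusted threshold (adjusted p = 0.13). At E14 it read 261, 281 and 264 in Notch1+ cells, against 533, 355 and 273 in whole retina, which overlapped in the lowest retina array (log2 fold change -0.47 ± 0.22, adjusted p = 0.27). Id4 had the same sign between stages in both preparations, at -0.47 in Notch1+ cells (adjusted p = 0.16) and -0.51 in whole retina (adjusted p = 0.12) for P0 minus E14. It was the 1 Id gene with negative values there, and no P0 Notch1+ array reached any E14 Notch1+ array.

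The Id3 and Id4 calls at P0 also turned on the scaling. The background-subtracted readings of P0 Notch1+ cells were below those of P0 whole retina without overlap for Id2 (316 to 1590 against 1707 to 4786), Id3 (804 to 1665 against 2563 to 5394) and Id4 (82 to 108 against 200 to 301), the retina arrays being brighter in general. The share of all probes lower without overlap in these readings was not counted, so this is not a result particular to the Id genes. In the authors' values Id3 was called at -1.14 (adjusted p = 0.033) and Id4 at -0.79 (adjusted p = 0.045), which are -0.95 and -0.61 relative to the median of all tested probes. Relative to that median, Id3 was -1.09 and Id4 -0.41 with the arrays scaled to the median of the tested probes, where Id3 was called and Id4 was not (adjusted p = 0.049 and 0.31). With 1 median over all mouse probes, Id3 was called at -1.46 (adjusted p = 0.0034) and Id4 at -0.78 (adjusted p = 0.0077), and with the 75th percentile Id3 was called at -1.14 (adjusted p = 0.026). Id3 was thus called under all 4 scalings of whole arrays and Id4 under 2. Under these scalings 1469 to 3778 of the 13683 tested probes were called lower at P0.

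Id2, present in differentiating neurons as well as progenitors, read 1796, 2629, 646 and 1451 in P0 Notch1+ cells, against 1345, 4183, 1496 and 1289.7 in P0 whole retina. In E14 Notch1+ cells it read 905, 839 and 1282, against 1325, 1519 and 1080.4 in E14 whole retina. The groups overlapped at both stages, with 95% intervals of -1.23 to 0.58 at P0 and -1.43 to 0.66 at E14. Id1, a BMP target in many tissues, read 572, 1433, 868 and 935 by its brighter probe in P0 Notch1+ cells, against 2729, 1723, 527 and 339.6 in P0 whole retina. The P0 retina arrays spanned 8.04-fold while the E14 Notch1+ arrays, at 707, 684 and 703, stayed within 1.03-fold, and the E14 whole retina arrays read 827, 1236 and 480.0. The log2 fold change of Id1 was -0.08 (-1.26 to 1.09) at P0 and -0.18 (-1.54 to 1.19) at E14, neither called. P0 whole retina replicates 1 and 2 were the highest of their group for both Id1 and Hes1.

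The 2 Id1 probes did not give the same picture. The dimmer probe, the one listed in the study's supplementary tables, was above background on 2 of 4 P0 Notch1+ arrays and on no other array, so it was not among the tested probes. It read 225, 127, 158 and 185 in P0 Notch1+ cells, against 108, 94.7, 90.0 and 112 in P0 whole retina. In a limma fit of all mouse probes it was higher in P0 Notch1+ cells than in P0 whole retina (adjusted p = 0.0048) and than in E14 Notch1+ cells (adjusted p = 0.020). Taken against the lowest signal above background, the folds were 1.31 and 1.18 in that order. They are not strict bounds, because the P0 Notch1+ arrays not above background were taken as read. Both adjusted p-values belong to the fitted log2 fold changes of 0.76 and 0.64, not to these folds. The brighter probe, above background on all 14 arrays, was called in neither comparison (log2 fold changes -0.08 and 0.37, adjusted p = 0.94 and 0.73).

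A difference of differences tested whether the gap from whole retina to Notch1+ cells changed with stage, and limma called none of the 9 genes, against 2.47% of tested probes. Hey2 was the 1 gene with an unadjusted p under 0.05, as had 17.6% of tested probes, with a difference of differences of -0.71 ± 0.21 (adjusted p = 0.088) that rests on E14 arrays not above background. For Hes5 it was 0.51, with a 95% interval of -0.81 to 1.82, and for Hes6 0.34 (-0.58 to 1.25). The interval for Hes5 spans values of either sign.

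**Figure D4:**
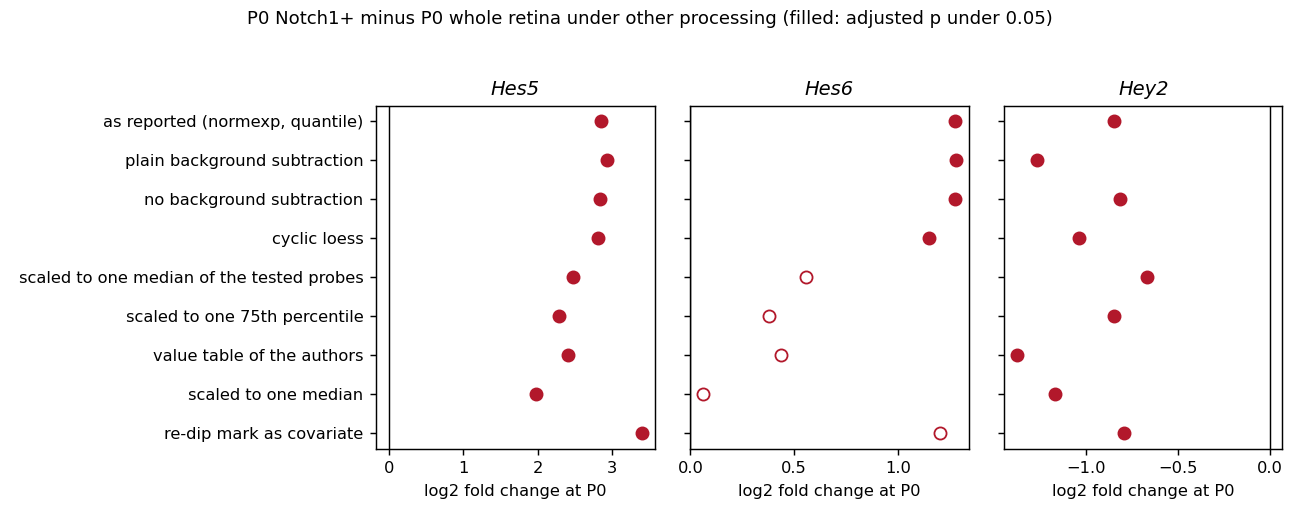
Log2 fold change of P0 Notch1+ cells over P0 whole retina (x axis) for Hes5, Hes6 and Hey2 under the reported processing and 8 others (y axis), filled where adjusted p was under 0.05. Hes5 (1.97 to 3.40) and Hey2 (-1.38 to -0.67) were called under all of them, and Hes6 was called under the reported processing, both other background corrections and cyclic loess.

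The genes around the repressors were read from lists of Notch, BMP and helix-loop-helix genes. Of 29 Notch receptor, ligand and signalling genes tested, 8 were called higher and 1 lower in P0 Notch1+ cells than in P0 whole retina, and 5 higher and 2 lower at E14. Of all tested probes, 8.97% were called higher and 10.7% lower at P0, and 2.67% and 3.24% at E14. Notch1, the receptor used for the selection, was among those called higher at both stages. At P0 the called genes also included Mfng, a Fringe enzyme that modifies Notch receptors (log2 fold change 3.08 ± 0.32), and the ligand Dll4 (1.73 ± 0.45). At E14 they included the ligand Dll3 (2.82 ± 0.46), while Notch3 was lower (-1.27 ± 0.22, with 2 of 3 E14 Notch1+ arrays above background). Rbpj, the factor through which Notch acts on Hes genes, was lower at P0 than at E14 in whole retina (adjusted p = 0.00071), at 101 to 123 in P0 whole retina, where no array was above background for it, against 242 to 343 in E14 whole retina. Of 7 other Hes and Hey relatives, Heyl and Bhlhe41 passed the filter, and Heyl was called higher at P0 than at E14 in whole retina (1.23 ± 0.30, adjusted p = 0.015).

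Among the proteins that work with the repressors, 1 of 6 Groucho corepressors was called higher in P0 Notch1+ cells than in P0 whole retina. This was Tle2, with a log2 fold change of 0.94 ± 0.20 (adjusted p = 0.0044), and the comparison of Notch1+ stages also called it, higher at P0 (1.44 ± 0.21, adjusted p = 0.0011, with 1 of 3 E14 Notch1+ arrays above background). None of the 6 was called at E14. Of the 3 E proteins that Id proteins bind, Tcf3 was called higher in P0 Notch1+ cells than in P0 whole retina (0.94 ± 0.29, adjusted p = 0.039), and Tcf4 (0.47) and Tcf12 (0.43) were not called. Of 9 genes tested from a list of proneural and other basic helix-loop-helix factors, 3 were called higher and 1 lower in P0 Notch1+ cells than in P0 whole retina. Those called higher were Olig2 at 2.20 ± 0.26, Neurog2 at 1.97 ± 0.52 and Atoh7 at 1.32 ± 0.29. Neurog2 varied widely, at 385 to 3468 in P0 Notch1+ cells against 169 to 309 in P0 whole retina. At E14 Atoh7, the factor required for ganglion cells, was higher in Notch1+ cells by 2.67 ± 0.34. Of 11 BMP signalling genes tested, 3 were called higher in P0 Notch1+ cells than in P0 whole retina, among them the receptor Bmpr1a (1.56 ± 0.30), and none was called at E14. Beside the counts of these lists, 8.97% of all tested probes were called higher and 10.7% lower at P0, and 2.67% and 3.24% at E14.

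Immediate early genes, which respond quickly to stimulation and to handling, were higher in the Notch1+ samples. The study describes dissociation and selection for these samples alone, so the effects of handling and of cell type cannot be told apart. Of 17 immediate early genes tested, 11 were called higher and 1 lower in P0 Notch1+ cells than in P0 whole retina, and 9 higher at E14. Of all tested probes, 8.97% were called higher and 10.7% lower at P0, and 2.67% higher at E14. The summed intensity was 44661 to 84231 in P0 Notch1+ cells against 6935 to 8249 in P0 whole retina. At E14 it was 17341 to 21863 in Notch1+ cells against 5000.0 to 7288 in whole retina. Atf3, Egr2, Egr3 and Klf2 were above background on no P0 whole retina array. In E14 whole retina 7 of the 17 (Fos, Atf3, Egr1, Egr2, Egr3, Klf2 and Arc) were above background on no array. These genes were tested through the other arrays. Vessels also use Hey and Id genes. Endothelial markers were called higher for 3 of 11 in P0 Notch1+ cells than in P0 whole retina, and for 0 of 11 at E14. Their summed intensity was 3885 to 7697 in P0 Notch1+ cells against 2601 to 3207 in P0 whole retina. At E14 the sums did not overlap either, at 1879 to 4831 in Notch1+ cells against 1616 to 1739 in whole retina. There 8 of the 11 were above background on no whole retina array. The median log2 fold change of the 11 was 0.67 at P0 and 0.86 at E14. The part of these lists in the results for Hes5, Hes6 and Hey2 was not tested.

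The probes most like Hes5 over the 14 arrays were those of Zfp157, Lrrc23, Ubb, Rbm26 and Dgkh (Pearson r = 0.95, 0.94, 0.94, 0.93 and 0.93). Lrrc23 was also among the 5 most like Hes6 (r = 0.91), behind E2f4 (r = 0.93) and Crip3 (r = 0.91). Hes1 had a less close match, with Snap29 at r = 0.85 and Gpr19 at r = 0.81, and Id4 was closest to Ammecr1 (r = 0.93). These correlations are over 14 arrays of 4 groups and describe the pattern across them.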

How the data were processed

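The scanner files deposited by the authors hold raw intensity readings (foreground and local background medians, background SD) for 38880 spots on each of 14 arrays, with spot flags listed as other values. The log2 value table deposited by the authors was found to be 1 factor per array (0.613 to 1.41) times the foreground median less the local background, floored at 1 before the log. Spots flagged bad were left out. Readings were corrected with normexp (offset 50), quantile-normalized and fitted in limma 3.58.1 (R 4.3.3), with the 4 group means and no covariate. The methods' t-test was an alternative, since it does not share the spread across probes. P-values measure the spread between samples that the study calls independent biological replicates. A bound takes, per array of the dimmer group, the higher of the probe's own value and the lowest signal above background. The brighter group was taken as read, so the bound is strict only where all of its arrays were above background. Symbols were given to 23430 mouse probes from RefSeq through accessions (22987) or gene IDs (443), and 10882 had none. The fit was tested on simulated data. Lists and members were chosen with earlier results of these data known. At most 4 called genes of each list in a comparison, by adjusted p, were eligible to be named, with the 5 probes most like each gene. Heyl, Bhlhe41, Tcf4 and Tcf12 complete short lists. Proteins and probe sequences were not used here.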

Additional observations from a re-analysis of the deposited data

Results flagged for a closer look

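Of 22 groups of 4 arrays examined (11 probes in the 2 P0 groups), 2 held an array that stood apart, where chance flags about 1 in 20 groups. For Hes5, P0 Notch1+ replicate 3 read 11359 and its gap to the next array took 0.898 of the whole range of its group on the log2 scale. For Id2, P0 whole retina replicate 2 read 4183, with a gap of 0.874 of the range. Without these arrays the Hes5 call at P0 was kept, and Id2, at 0.078, turned sign and was still not called.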

How the results depend on the processing

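Hes5 and Hey2 kept their P0 calls, and Hey2 its calls between stages, under every alternative run. Hes6 at P0 was not called with the arrays scaled to 1 median (log2 fold change 0.06), to a 75th percentile (0.38), to the median of the tested probes (0.56), in the authors' values (0.44), with the array headers' re-dip mark fitted (1.20) or with the methods' t-test after Benjamini-Hochberg (adjusted p = 0.068). The re-dip mark stood on 1 of 4 P0 Notch1+ arrays and 2 of 3 E14 Notch1+ arrays. All whole retina arrays carried it, so its effect was estimated within the Notch1+ groups alone. The median of all tested probes, at or near 0 as reported, stood with 1 median at -0.37 at P0, -0.14 at E14, -0.26 between Notch1+ stages and -0.23 for the stage dependence, in the authors' values at -0.19, -0.17 and -0.16 for P0, Notch1+ stages and stage dependence, and with the median of the tested probes at 0.13 at P0. Calls over all probes at P0 split into 1227 higher and 1467 lower as reported, 320 and 3778 with 1 median, 1070 and 2046 with the 75th percentile, 780 and 2273 in the authors' values, and 2126 and 1469 with the median of the tested probes.

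The count of called genes at E14 (1 as reported) was 0 with the E14 groups alone, 2 with the mean over the probes of a gene, 3 with the methods' t-test unadjusted and 0 after Benjamini-Hochberg, when Hes5 had an adjusted p of 0.24. Between Notch1+ stages the count (1) was 2 with the Id1 probe of the supplementary tables and 2 by the methods' t-test, unadjusted or adjusted, where Id4 joined Hey2. For the stage dependence the count (0) was 1, Hey2, with plain background subtraction, with 1 median and with no filter on dim probes. Leaving out each array gave 3 to 4 called genes at P0, where Id3 joined without P0 Retina replicate 1, 1 to 1 at E14, 1 to 2 between Notch1+ stages, where Hes5 joined without E14 Notch1+ replicate 1, 1 to 2 between retina stages, where Id4 joined without E14 Retina replicate 3 (-0.73), and 0 to 0 for the stage dependence.

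Uncalled values near 0 turned sign. At P0, Hes1 was -0.60 with 1 median, -0.28 with the 75th percentile, -0.24 in the authors' values and -0.10 with the median of the tested probes, and Hey1 was -0.64, -0.32, -0.36 and -0.14 in that order and -0.029 with cyclic loess. Id1 was 0.28 and Id2 0.26 with the re-dip mark, and Id1 was 0.76 at P0 and -0.25 between retina stages by its dimmer probe. Between Notch1+ stages Id1 was -0.080 with 1 median, and Id3 was -0.32 with 1 median, -0.12 with the 75th percentile, -0.16 in the authors' values, -0.019 with the median of the tested probes and -0.070 with the re-dip mark. For the stage dependence, Hes5 was -0.15 with 1 median and -0.0023 in the authors' values, and Hes6 was -0.69 with 1 median, -0.54 with the 75th percentile, -0.53 in the authors' values and -0.43 with the median of the tested probes. Leaving out 1 array, Hes1 ranged from -0.14 to 0.60, Hey1 from -0.36 to 0.28, Id1 from -0.58 to 0.42 and Id2 from -0.61 to 0.078 at P0, Hey1 from -0.52 to 0.59 and Id1 from -0.53 to 0.15 at E14, Hes1 from -0.93 to 0.13, Id1 from -0.22 to 0.78 and Id3 from -0.22 to 0.36 between retina stages, and Hes5 from -0.080 to 1.12 for the stage dependence. The cause of these changes was not tested.

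Same-numbered arrays correlated between -0.056 and 0.084 in their deviations from the group means, and differently numbered ones between -0.15 and 0.12. With so few arrays, these values cannot decide whether same-numbered samples came from the same animals. With the replicate number as a block the called genes numbered 3 at P0, 1 at E14, 1 between Notch1+ stages, 1 between retina stages and 0 for the stage dependence, as without it. The number of arrays limits the precision, and Hey2 and the dimmer Id1 probe lay at background on many of them.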
